A study of Homo sapiens with 6 samples.

Results

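The 40 genes described here are targets of the transcription factor ATF4 together with the cytosolic aminoacyl-tRNA synthetases. They fall into 9 genes called regulators below, 8 enzymes of amino acid synthesis, 6 amino acid transporters and 17 tRNA synthetases. The name regulators is that of a list, which also holds targets such as CHAC1, SESN2 and VLDLR. The 40 genes were taken by symbol, with no threshold on their values, and all 40 were among the 10487 genes measured.

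ATF4 is a basic leucine zipper factor of the integrated stress response. When cells lack amino acids or carry a burden of unfolded protein, kinases phosphorylate the initiation factor eIF2, most translation slows and the ATF4 message is translated more, so the amount of ATF4 protein need not follow its mRNA. With C/EBP partners, ATF4 binds response elements near genes that import amino acids, make them or load them onto tRNA. The tRNA synthetases are the enzymes that join each amino acid to its tRNA.

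The cells were MDAMB468, an established human line of triple negative breast cancer, in 2 groups of 3 biological replicates with no drug treatment. Control cells carry the wild-type genotype label. IGFBP2 overexpression cells (MDAMB468-VHP-IGFBP2) stably express a catalytically dead Cas9 fused to activator domains, and a guide RNA directs it to IGFBP2. They had been selected with blasticidin and sorted for the fluorescent protein of the guide vector, and whether the control cells carry the activator is not given in the sources used here, so IGFBP2 and the activator, selection and sorting cannot be told apart. RNA was sequenced from the 3′ end of transcripts, and levels are given as read counts scaled to library size (CPM). Depth on the measured genes was 4579587 reads for Control replicate 1, 3530444 for replicate 2 and 2497353 for replicate 3. For the IGFBP2 overexpression libraries, in the same order, it was 2547997, 3068198 and 3069734 reads. Below, the values of each group are listed in the order of replicates 1, 2 and 3. A single read was therefore worth between 0.222 and 0.404 CPM.

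IGFBP2 itself, which checks the labels, was 93.5, 87.3 and 136 CPM in the control libraries and 566, 1176 and 498 CPM in the overexpression libraries. All 6 epithelial markers looked for were measured, among them KRT19 at 2608 ± 491 CPM (SD, n = 3) in control cells. Control replicate 2 was the lowest of the 6 libraries in 3 of them (KRT8, KRT18 and KRT19) and the highest in 1, KRT7. It was the lowest in 1889 of all 10487 genes. Of 6 basal and MDAMB468 markers 5 were measured, among them EGFR at 937 ± 176 CPM (SD, n = 3) and KRT14 at 11.8 ± 6.21 CPM (SD, n = 3) in control cells. Control replicate 2 was the lowest library in 1 of these 5, KRT5, and the highest in 0. LAMB3 of the same list, a laminin chain, was 7.99, 4.45 and 4.04 CPM in the controls and 63.9, 41.3 and 37.1 CPM in the overexpression libraries. Its log2 fold change was 2.91 (adjusted p = 0.00907 from limma), and it was the only one of these markers to pass the test. KRT6A and the hormone receptor genes ESR1 and PGR were not in the table. GATA3, a luminal factor listed with the hormone receptors, was measured at 149.7 ± 26.3 CPM (SD, n = 3) in control cells. None of 5 immune or 4 endothelial markers was in the table, and of 5 fibroblast markers only COL1A1 was, at 9.36 to 27.5 CPM in the 6 libraries. In RNA from a whole culture, fewer cells that express a gene and less RNA per cell cannot be told apart.

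None of the 40 genes passed the test for a difference between the groups. The comparison asked whether forced IGFBP2 expression altered the ATF4 response, and the smallest adjusted p among the 40 was 0.294, for SARS1 (limma, Benjamini-Hochberg over all genes, threshold 0.05). Over all 10487 genes, 66 or 0.629% passed, and limma voom on the recovered reads also passed 0 of the 40. At an unadjusted p under 0.05 there were 3 of the 40, or 7.50%, against 13.0% of all genes. These 3 were the glutamine transporter SLC1A5 and the synthetases EPRS1 and SARS1, and all were lower in IGFBP2 overexpression cells, a direction taken by 6.12% of all genes at that level. All 3 overexpression libraries lay below all 3 control libraries in 5 of the 40 (SLC1A5, EPRS1, SARS1, QARS1 and RARS1), or 12.5%, against 8.61% of all genes. The reverse occurred in 0 of the 40, against 9.43% of all genes, and in the other 35 the groups overlapped.

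One library stood apart. Control replicate 2 had the highest level of the 6 libraries in 32 of the 40 genes, or 80.0%, against 20.7% of all genes, and Control replicate 3 had the lowest in 17, or 42.5%, against 18.8% of all genes. This was noticed in these libraries and is a description with no test. The fold change between groups was negative in 27 of the 40, with a median of -0.23 on the log2(CPM + 1) scale, beside a median of 0.00 over all genes. Without Control replicate 2, it was negative in 18 and the median was 0.05. For any gene highest in that library, leaving it out can only raise the fold change. The direction of such shifts, here and below, was thus fixed in advance and is not a result. In the fit without it, 0 of the 40 passed the adjusted threshold and 4 had an unadjusted p under 0.05. These were DDIT3, CEBPB, SLC7A5 and SLC38A2, each highest in Control replicate 2 and higher in IGFBP2 overexpression cells in that fit. In the same fit 12.9% of all genes were at that level, 7.40% of all genes in the higher direction, and 0.667% passed the adjusted threshold. Control replicate 3 was the shallowest library, and Control replicate 2 was neither the deepest nor the shallowest. The part of depth in the values of either library was not tested.

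**Figure D1:**
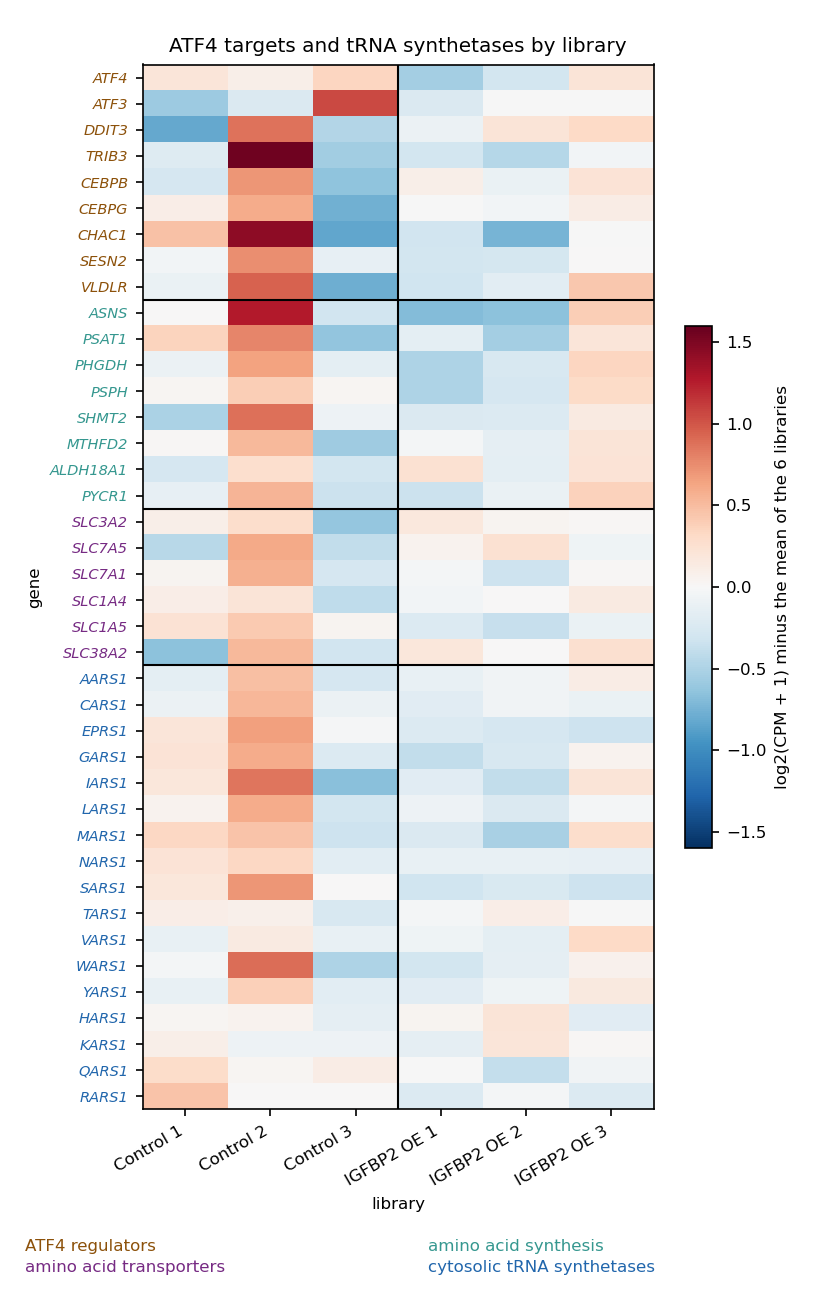
Level of each of the 40 genes (rows, coloured by group name) in each library (columns), as log2(CPM + 1) minus the gene's mean over the 6 libraries; red is above and blue below that mean, and OE is IGFBP2 overexpression. The column of Control 2 is the highest in 32 of the 40 rows, and ATF4 in the first row is not one of them.

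The spread among the control libraries was larger than the difference between groups for most of these genes. The standard deviation of log2(CPM + 1) was larger in control than in IGFBP2 overexpression cells in 34 of the 40, or 85.0%, against 61.0% of all genes, with medians of 0.43 and 0.18. In 33 of the 40 the fold change between groups was smaller than 1 standard deviation of the control libraries, against 57.9% of all genes. The 95% interval of the log2 fold change lay between -1 and 1, that is within a 2-fold change either way, for 31 of the 40, close to the 77.3% of all genes.

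**Figure D2:**
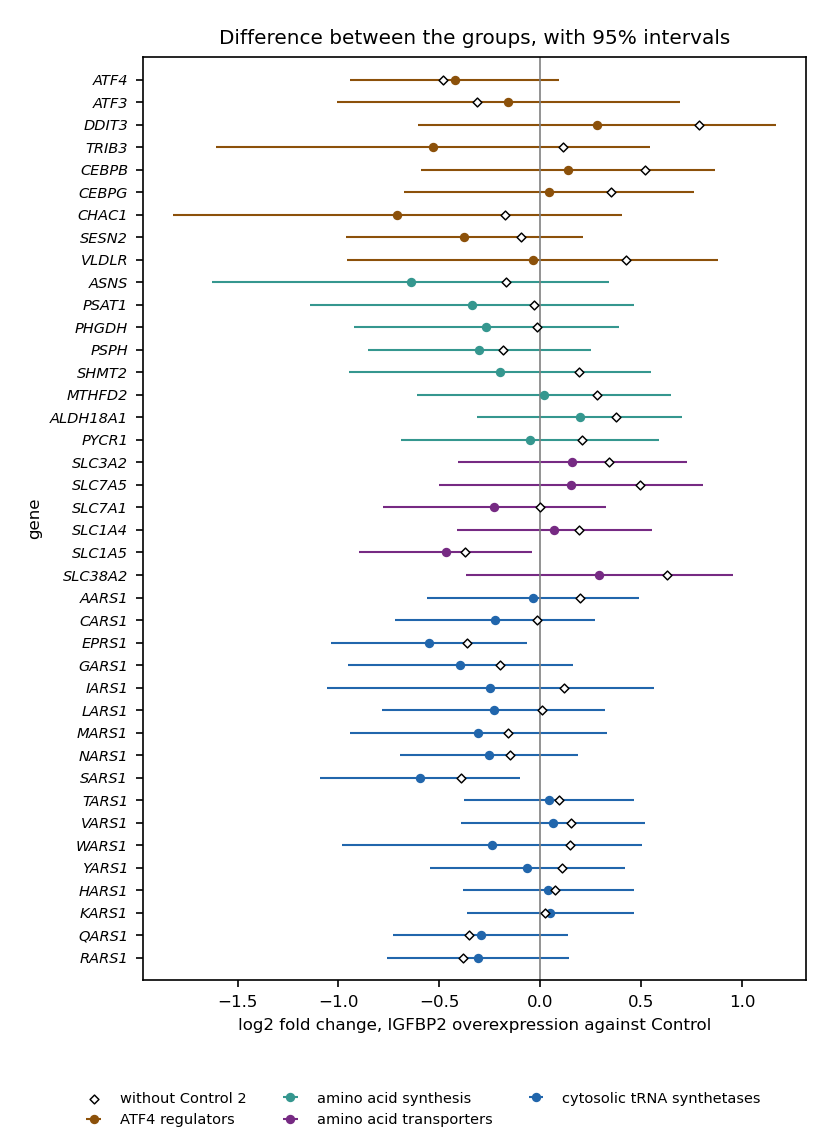
Log2 fold change of IGFBP2 overexpression against Control for each of the 40 genes (filled circles, coloured by group, with 95% intervals from limma) and the same value without Control replicate 2 (open diamonds). Of the 40 intervals, 37 include 0, and the diamonds lie to the right of the circles for most genes.

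The promoters of these genes were read for the C/EBP-ATF response element, searched as TGATGNAA on both strands. The windows were the RefSeq promoters of GRCh38.p14, from 250 bases before to 50 bases after each gene's start. A window was at hand for 34 of the 40 genes, and 15 of these, or 44.1%, held a match, beside 225 of 8551 genes of the table, or 2.63%. The share was 3 of 9 among regulators, 1 of 5 among synthesis enzymes, 4 of 6 among transporters and 7 of 14 among synthetases. Of the 15 matches, 10 had the letters TGATGCAA and 3 had TGATGAAA. Counted from the RefSeq start used for each window, 8 lay wholly before it, 3 spanned it and 4 followed it. That start can differ from the outer gene bounds given in this text, which are those of GENCODE 44 over all of a gene's transcripts. By that annotation 13 of the 15 matches overlapped an exon of some transcript of the gene, that of CEBPG was intronic and that of ATF3 lay outside the gene. The 10 sequences below were chosen with the values known, to show matches from each of the 4 groups in genes high in Control replicate 2 and in ATF3 and TARS1, which were not highest there. The match is in capitals and each sequence is read in its direction.
ATF3, chr1:212565205-212565234, plus strand: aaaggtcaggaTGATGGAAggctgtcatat
CHAC1, chr15:40953251-40953280, minus strand: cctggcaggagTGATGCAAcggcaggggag
CEBPG, chr19:33374060-33374089, plus strand: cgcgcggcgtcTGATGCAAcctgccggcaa
ASNS, chr7:97872458-97872487, minus strand: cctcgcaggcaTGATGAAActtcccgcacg
SLC1A5, chr19:46784893-46784922, minus strand: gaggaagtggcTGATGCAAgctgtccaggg
SLC7A1, chr13:29595663-29595692, minus strand: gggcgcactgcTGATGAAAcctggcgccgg
IARS1, chr9:92293692-92293721, plus strand: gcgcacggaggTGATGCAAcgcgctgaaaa
CARS1, chr11:3057407-3057436, plus strand: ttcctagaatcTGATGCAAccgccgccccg
AARS1, chr16:70289675-70289704, plus strand: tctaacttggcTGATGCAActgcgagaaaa
TARS1, chr5:33440956-33440985, minus strand: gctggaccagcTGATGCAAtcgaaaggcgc

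Relative to the RefSeq start, the CHAC1 match began 209 bases before it, that of ATF3 191, that of AARS1 187, that of SLC1A5 97, that of ASNS 68, that of CEBPG 42 and that of IARS1 13 bases before it. The CARS1 match spanned this start, and those of TARS1 and SLC7A1 followed it at bases 3 and 8. Genes with and without a match were both high in Control replicate 2, the highest library in 13 of the 15 with a match and 14 of the 19 without. Its level stood above the mean of the other controls by a median of 0.59 on the log2 scale over the 15 genes with a match, from -0.47 to 1.61, and by 0.79 over the 19 without one, from -0.22 to 1.93. A match of letters is not a bound site, and the lack of one speaks only for these letters in the window read.

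Among the 9 regulators 0 passed the test, 6 had a negative and 3 a positive fold change, and the median log2 fold change was -0.16. ATF4 (ENSG00000128272, chr22:39519695-39522683, plus strand) had the highest CPM of the 40 genes. The controls held 1723, 1609.7 and 1916 CPM, and the overexpression libraries held 1032, 1224 and 1743 CPM. IGFBP2 overexpression replicates 1 and 2 were below all controls while replicate 3 was among them, and Control replicate 2 was the lowest control. The log2 fold change was -0.42 (95% interval -0.94 to 0.10, adjusted p = 0.476 from limma), and ranged from -0.63 without IGFBP2 overexpression replicate 3 to -0.26 without replicate 1 of that group. ATF4 joined the genes at an unadjusted p under 0.05 with a mean-variance trend, with limma voom and without IGFBP2 overexpression replicate 3.

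CHAC1, which degrades glutathione, had the largest fold change of the regulators. It was measured at 27.5, 54.2 and 10.5 CPM in the controls and 15.6, 11.3 and 19.4 CPM in the overexpression libraries. All 3 overexpression libraries lay between the lowest and the highest control. The log2 fold change was -0.71 (95% interval -1.82 to 0.40, adjusted p = 0.598 from limma), and -0.17 without Control replicate 2. TRIB3, a pseudokinase that ATF4 induces and that feeds back on it, was chosen after its values were seen as the gene furthest apart in Control replicate 2 among the 40. It stood at 118, 401 and 92.2 CPM in the controls and at 110.3, 98.8 and 132 CPM in the overexpression libraries, so that Control replicate 2 was 3.63 times the mean of the other 5 libraries. Its log2 fold change was -0.53 with all libraries and 0.11 without that replicate.

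DDIT3, which encodes the stress factor CHOP, was also named after its values were seen. Its level was 16.6, 55.9 and 21.4 CPM in the controls and 28.1, 34.9 and 37.8 CPM in the overexpression libraries, above the other 2 controls in all 3 and below Control replicate 2. Its log2 fold change was 0.28, and 0.79 without Control replicate 2 (adjusted p = 0.195 from limma). ATF3, a related factor of the same family, was likewise named after its values were seen. It differed in that Control replicate 3 was the highest at 44.1 CPM, with the other 5 libraries between 13.5 and 20.7 CPM. Of the remaining regulators, the C/EBP partners CEBPB and CEBPG, the mTORC1 inhibitor SESN2 and the lipoprotein receptor VLDLR each had their highest level in Control replicate 2, at 1.61 to 2.34 times the mean of the other libraries. VLDLR rested on 7 to 42 reads a library.

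**Figure D3:**
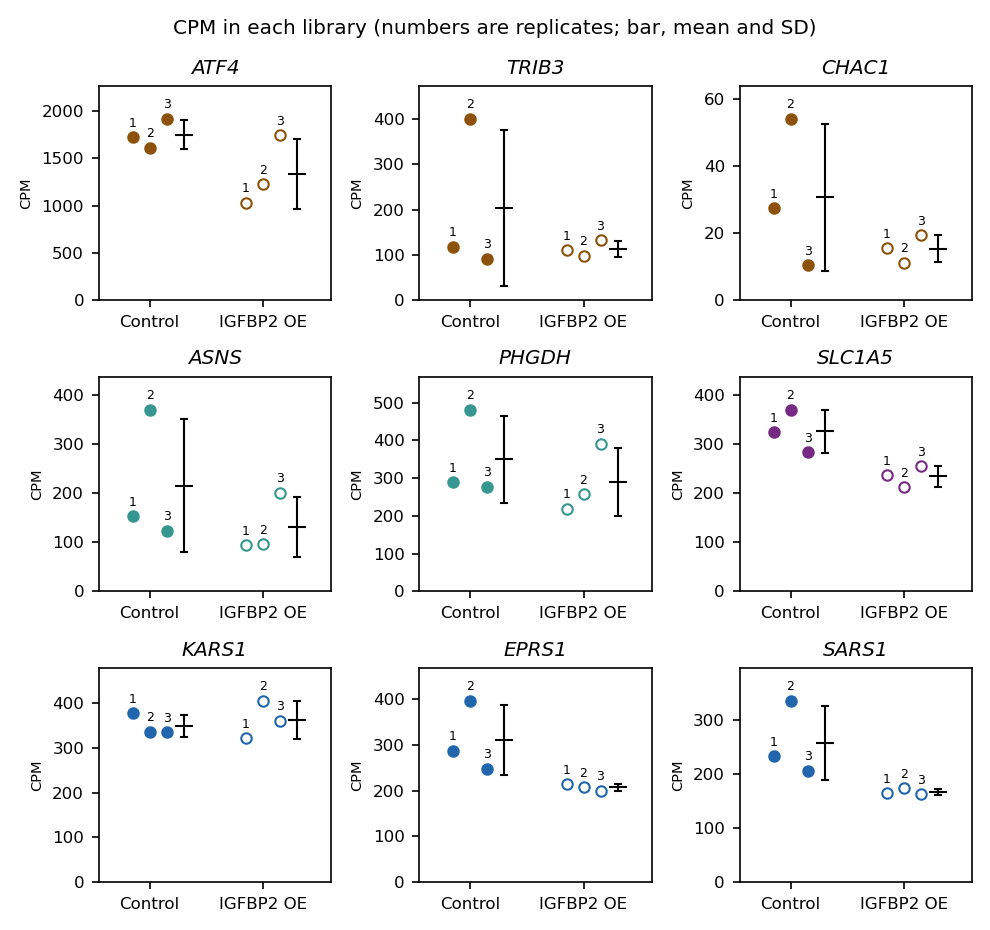
CPM of 9 of the genes in each library (filled circles, Control; open circles, IGFBP2 overexpression; the digit is the replicate), with the mean and SD of 3 libraries as a bar; each axis starts at 0. TRIB3, CHAC1, ASNS and PHGDH are highest in Control 2, ATF4 and KARS1 are not, and in SLC1A5, EPRS1 and SARS1 every overexpression library lies below every control.

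The 8 enzymes of amino acid synthesis were all highest in Control replicate 2. None passed the test, 6 had a negative and 2 a positive fold change, and the median log2 fold change was -0.23 with all libraries and 0.09 without Control replicate 2. ASNS, asparagine synthetase, had the largest fold change (ENSG00000070669, chr7:97851677-97872542, minus strand). Its level was 153, 369.9 and 123 CPM in the controls and 93.9, 96.5 and 201 CPM in the overexpression libraries. IGFBP2 overexpression replicates 1 and 2 were below all controls, while replicate 3 was below Control replicate 2 alone. The log2 fold change was -0.64 (95% interval -1.63 to 0.34, adjusted p = 0.585 from limma), -0.17 without Control replicate 2 and -0.999 without IGFBP2 overexpression replicate 3.

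PHGDH, which commits a glycolytic intermediate to serine synthesis, had the highest CPM of this group. It stood at 289.7, 481 and 278 CPM in the controls and at 219, 258 and 391 CPM in the overexpression libraries, with a log2 fold change of -0.27 (95% interval -0.92 to 0.39). The next steps of serine synthesis, PSAT1 and PSPH, had log2 fold changes of -0.34 and -0.30. Without Control replicate 2 the log2 fold changes of PHGDH, PSAT1 and PSPH were -0.014, -0.033 and -0.18, and without IGFBP2 overexpression replicate 3 they were -0.51, -0.52 and -0.53. PSPH has a near-identical pseudogene copy, so its reads are uncertain. SHMT2 and MTHFD2, which move carbon from serine into the mitochondrial folate cycle, were at -0.20 and 0.02, and the proline synthesis enzymes ALDH18A1 and PYCR1 at 0.19 and -0.05. In all 8, the groups overlapped. IGFBP2 overexpression replicate 3 was the highest of its group in PSAT1, PHGDH, PSPH, SHMT2, MTHFD2, PYCR1 and ASNS.

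The 6 transporters were likewise all highest in Control replicate 2, with 4 positive and 2 negative fold changes and a median log2 fold change of 0.11. SLC1A5, which exchanges glutamine and other neutral amino acids, had both the highest CPM and the largest fold change of the group (ENSG00000105281, chr19:46774883-46788594, minus strand). Its level was 324, 369.9 and 283 CPM in the controls and 237, 212 and 255 CPM in the overexpression libraries. Every overexpression library was below every control, though not by an amount that passed the test. Control cells averaged 326 ± 43.3 CPM (SD, n = 3) and IGFBP2 overexpression cells 235 ± 21.4 CPM (SD, n = 3), with a log2 fold change of -0.47 (95% interval -0.90 to -0.04, adjusted p = 0.337 from limma), and of -0.37 without Control replicate 2. An exact two-sided permutation test gave p = 0.1, the smallest that 3 libraries against 3 allow.

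The other transporters overlapped between groups. SLC3A2 and SLC7A5, the chains of a heterodimer that imports large neutral amino acids such as leucine, had log2 fold changes of 0.16 and 0.15. The cationic amino acid carrier SLC7A1 was at -0.23, SLC1A4 at 0.07 and the sodium-coupled SLC38A2 at 0.29. SLC7A1 was at -0.002 without Control replicate 2 and at -0.42 without Control replicate 3. SLC38A2, chosen after its values were seen, stood at 64.8, 148 and 83.3 CPM in the controls and 117, 103 and 124 CPM in the overexpression libraries. Its overexpression libraries thus lay between Control replicate 2 and the other controls, and its log2 fold change was 0.63 without Control replicate 2 (adjusted p = 0.270 from limma). SLC7A5 moved likewise to 0.49 (adjusted p = 0.347 from limma) and the regulator CEBPB to 0.52 (adjusted p = 0.368 from limma).

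Among the 17 cytosolic tRNA synthetases, 0 passed the test, 13 had a negative and 4 a positive fold change, and the median log2 fold change was -0.24. Without Control replicate 2 the median was 0.01 and 8 were negative. SARS1, the seryl-tRNA synthetase, had the largest fold change (ENSG00000031698, chr1:109213918-109238182, plus strand). Its level was 234, 337 and 207 CPM in the controls and 165, 174 and 163 CPM in the overexpression libraries, which lay close together and below every control. The means were 259 ± 68.5 and 167 ± 5.89 CPM (SD, n = 3), and the log2 fold change was -0.60 (95% interval -1.09 to -0.10, adjusted p = 0.294 from limma), or -0.39 without Control replicate 2.

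EPRS1, which charges glutamate and proline tRNAs from a single protein, was similar (ENSG00000136628, chr1:219968600-220046530, minus strand). It stood at 286, 396 and 247 CPM in the controls and at 214, 207 and 199 CPM in the overexpression libraries, with no overlap. The means were 309.6 ± 76.9 and 207 ± 7.51 CPM (SD, n = 3), and the log2 fold change was -0.55 (95% interval -1.04 to -0.06, adjusted p = 0.320 from limma), or -0.36 without Control replicate 2. The promoter windows of SARS1 and EPRS1 held no match to the element. QARS1 and RARS1, the glutaminyl and arginyl enzymes, were below every control too, with log2 fold changes of -0.30 and -0.31 (adjusted p = 0.565 and 0.563 from limma), and in both the highest library was Control replicate 1.

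KARS1, the lysyl-tRNA synthetase, had the highest CPM of the synthetases, at 376, 336 and 334 CPM in the controls and 321, 404 and 360.0 CPM in the overexpression libraries. The 2 groups overlapped, with a log2 fold change of 0.05 (95% interval -0.36 to 0.46). Control replicate 2 was the highest library in 11 of the 17, and WARS1, for tryptophan, and IARS1, for isoleucine, stood out most there, at 2.10 and 2.00 times the mean of the other 5 libraries, with log2 fold changes between the groups of -0.24 and -0.25. In the remaining 6 (TARS1, VARS1, HARS1, KARS1, QARS1 and RARS1) it was not the highest, and its level was 0.935 to 1.12 times that mean. TARS1 was among these although its window held the element, and the enzymes VARS1, HARS1, KARS1 and TARS1 had log2 fold changes between 0.04 and 0.06. Those not yet given, AARS1, CARS1, GARS1, LARS1, MARS1, NARS1 and YARS1, had log2 fold changes from -0.40 to -0.03. Without Control replicate 2, CARS1 was at -0.015, GARS1 at -0.20, MARS1 at -0.16 and NARS1 at -0.15.

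Set side by side, each of the 4 groups had its highest median in Control replicate 2. The median over genes of the deviation from the 6-library mean in Control replicate 2 was 0.75 on the log2 scale for regulators, 0.60 for synthesis enzymes, 0.47 for transporters and 0.45 for synthetases, against 0.02 for all genes. In Control replicate 3 it was -0.56, -0.30, -0.35 and -0.17. In the overexpression libraries it ranged from -0.29 to 0.26 over the 4 groups. The summed level of the 17 synthetases was 3128, 3732 and 2556 CPM in the controls, against 2518, 2626 and 2815 CPM with IGFBP2 overexpression.

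**Figure D4:**
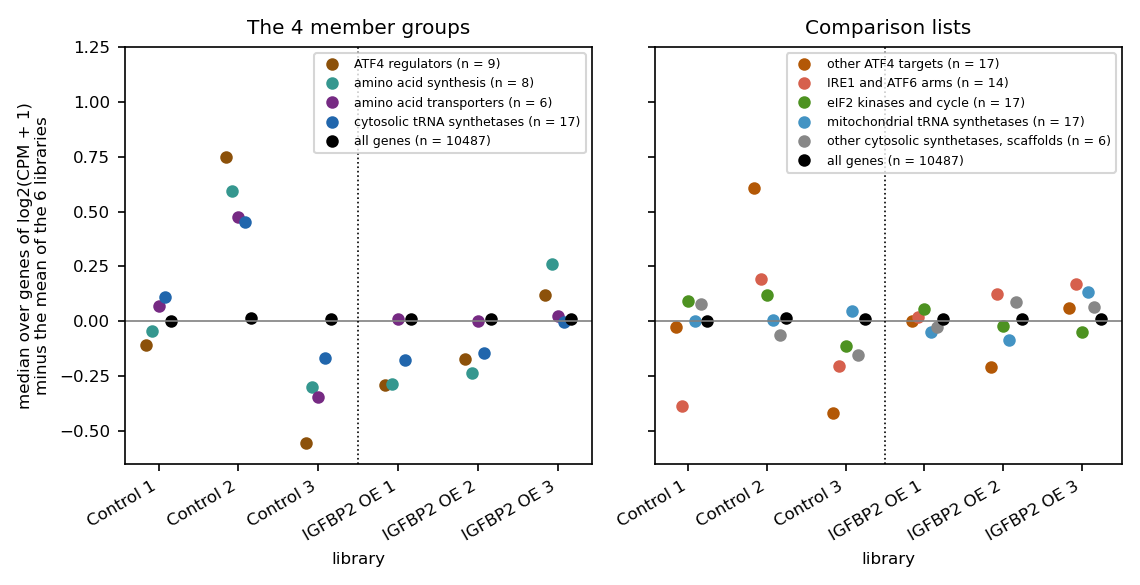
Median over the genes of each list of log2(CPM + 1) minus the gene's 6-library mean, by library, for the 4 groups of the 40 genes (left) and for comparison lists (right), with all genes in black. The 4 groups reach 0.45 to 0.75 in Control 2 and the other ATF4 targets 0.61. The IRE1 and ATF6 arms are at 0.19 there and mitochondrial synthetases at 0.01.

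A list of other ATF4 targets had 17 of its 21 genes in the table, and 0 passed the test. Control replicate 2 was the highest library in 12 of the 17. The smallest p was that of NDRG1, a stress and hypoxia responsive gene, at 53.1, 239 and 184 CPM in the controls and 1114, 913 and 422 CPM in the overexpression libraries. Its groups did not overlap, and its log2 fold change was 2.50 (95% interval 1.24 to 3.75, adjusted p = 0.108 from limma). It passed the threshold with a pseudocount of 5 (adjusted p = 0.0195), with a mean-variance trend (adjusted p = 0.00656) and with limma voom (adjusted p = 0.0129). NUPR1, a stress-induced chromatin protein, was next with a log2 fold change of -0.77 (adjusted p = 0.337 from limma), and JDP2, a bZIP repressor, followed at -0.48 (adjusted p = 0.391 from limma).

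GDF15, a stress cytokine, was named after its values were seen, because its excess in Control replicate 2 over the other controls, 4.93 on the log2 scale, was the largest of all 10487 genes. It stood at 5.77, 117 and 1.21 CPM in the controls, the last of these from 3 reads, and at 38.2, 46.8 and 33.8 CPM in the overexpression libraries. The overexpression libraries lay between Control replicate 2 and the other controls. Its log2 fold change was 1.74 (adjusted p = 0.577 from limma) with all libraries and 3.38 without Control replicate 2 (adjusted p = 0.0237 from limma). GDF15 thus passed the threshold only in the second of these 2 fits. As it was picked for its value in the library left out there, that p-value is not a test of a difference between the groups.

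The 17 mitochondrial tRNA synthetases, separate enzymes for the organelle's own translation, did not have this library pattern, and Control replicate 2 was the highest in 1 of them. None passed the test. At an unadjusted p under 0.05, 2 were higher and 2 lower, or 23.5% together, against 13.0% of all genes. The overexpression libraries lay above every control in 4 of the 17, or 23.5%, against 9.43% of all genes. They lay below every control in 2, or 11.8%, against 8.61% of all genes. Those with the smallest p were FARS2 at -0.67, PARS2 at 0.64 and VARS2 at 0.54 on the log2 scale (adjusted p = 0.293, 0.335 and 0.335 from limma). The 6 other cytosolic synthetase subunits and complex scaffolds had 0 genes past the test and 1, FARSB, that was highest in Control replicate 2. Their smallest p-values were those of EEF1E1, AIMP2 and FARSB, with log2 fold changes of 0.27, -0.16 and -0.15.

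Upstream of ATF4, the 17 genes of the eIF2 kinases and the eIF2 cycle also had 0 past the test, with 8 positive and 9 negative fold changes and a median log2 fold change of -0.01. DELE1, which relays mitochondrial stress to an eIF2 kinase, was at 0.44, and the eIF2B subunits EIF2B5 and EIF2B2 at -0.41 and 0.31 (adjusted p = 0.379, 0.445 and 0.547 from limma). Control replicate 2 was the highest library in 4 of the 17. The 14 genes of the IRE1 and ATF6 arms, which carry the rest of the unfolded protein response, had 11 positive and 3 negative fold changes, 0 past the test and a median log2 fold change of 0.28, or 0.44 without Control replicate 2. The number at an unadjusted p under 0.05 was 2 of 14 with all libraries and 5 of 14 without that replicate, against 13.0% and 12.9% of all genes. The disulfide isomerase PDIA4 was at 0.61, the secreted factor MANF at 0.61 and the chaperone partner SDF2L1 at 0.44 (adjusted p = 0.236, 0.294 and 0.449 from limma), and these 3 and PDIA6 were the 4 of 14 genes, or 28.6%, in which the overexpression libraries lay above every control, against 9.43% of all genes. In this list Control replicate 2 was above both other controls in 12 of 14 genes, beside 34 of the 40 and 35.6% of all genes. It was the highest of all 6 libraries in 5 of the 14. Control replicate 1 was the lowest of all in 8, against 18.1% of all genes.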

How the data were processed

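3 biological replicates of control and 3 of IGFBP2 overexpression MDAMB468 cells were grouped by their labels. Per the study's methods and the submitters' processing notes, reads were aligned to hg38, counted per gene with HTSeq 0.9.1 and normalized with edgeR by the authors, whose filter asked for a mean above 5 CPM in either condition. The authors deposited log2 values, here found to be log2(CPM + 1), and 100% of them came back to whole reads within a tolerance of 0.1. No gene was at 0 in any library.

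Genes were compared with limma 3.58.1 (R 4.3.3), without a trend, on all 10487 genes, using the log2 values as deposited (pseudocount 1), and p-values were adjusted over all of them at a threshold of 0.05. P-values weigh the difference between groups against the spread between these libraries, which limma moderates with that of all genes. The study describes a single IGFBP2 overexpression line of MDAMB468, so they do not cover variation between such lines. Fold changes on this scale understate those of low genes. Symbols came from GENCODE 44 on GRCh38 for 10462 genes, as did gene positions. Tables and figures were made in Python 3.11.15.

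The members and the lists were chosen with earlier results of these data known. Levels by library are given for those of the 40 with an adjusted or unadjusted p under 0.05. They are also given for the highest CPM and largest fold change of each of the 4 groups. From each other list, apart from the cell markers, the 3 genes with the smallest p are named. The markers were named as examples, and WARS1 and IARS1 for their level in Control replicate 2. Other genes chosen otherwise are said to be so. Alternatives covered the pseudocount, a filter, scaling, the variance model, limma voom on the recovered reads, a replicate block and leaving out 1 library at a time. A test with edgeR was not among them.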

Additional observations from a re-analysis of the deposited data

How the results depend on the processing

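None of the 40 genes passed the adjusted threshold under any of the 15 alternatives, 599 gene and alternative combinations in all. The number of all genes that passed moved from 66 to 37 with a pseudocount of 0.1, to 129 with a pseudocount of 5, to 160 with a mean-variance trend and to 135 with limma voom on the recovered reads, and ranged from 12 to 79 with 1 library left out. The 3 genes at an unadjusted p under 0.05 became 0 to 6 with 1 library left out, where 9.10% to 13.5% of all genes were at that level. They were 0 without IGFBP2 overexpression replicate 1, and 6 of the 40 against 11.9% of all genes without Control replicate 3. With the replicate block 55 genes passed, none of them among the 40, and EPRS1 and SARS1 kept an unadjusted p under 0.05. Around their group means, libraries with the same number had correlations of 0.17, -0.064 and 0.084, not all above 0.1, so the numbers were not taken as pairs.

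No scaling, pseudocount, filter or variance model turned the sign of any of the 40 fold changes, but leaving out 1 library turned 21. The median log2 fold change with 1 library left out ranged from -0.43 to 0.11 for regulators, -0.41 to 0.09 for synthesis enzymes, -0.11 to 0.26 for transporters and -0.39 to 0.0065 for synthetases, with the upper end of each without Control replicate 2. The ranges of the 21 genes, on the log2 scale, were -0.49 to 0.33 for ATF3, -0.058 to 0.79 for DDIT3, -0.94 to 0.11 for TRIB3, -0.15 to 0.52 for CEBPB, -0.33 to 0.35 for CEBPG and -0.44 to 0.43 for VLDLR. They were -0.50 to 0.19 for SHMT2, -0.26 to 0.28 for MTHFD2, -0.25 to 0.21 for PYCR1, -0.11 to 0.34 for SLC3A2, -0.033 to 0.49 for SLC7A5 and -0.12 to 0.19 for SLC1A4. Among synthetases they were -0.18 to 0.19 for AARS1, -0.64 to 0.12 for IARS1, -0.44 to 0.0065 for LARS1, -0.074 to 0.11 for TARS1, -0.080 to 0.15 for VARS1, -0.55 to 0.15 for WARS1, -0.16 to 0.11 for YARS1, -0.051 to 0.14 for HARS1 and -0.034 to 0.13 for KARS1. The cause of these turns, other than fewer libraries, was not tested. Depth limits the lowest gene, VLDLR, to 7 reads in Control replicate 3.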
